A study of Mus musculus with 6 samples.

Results

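The sequences described here are secondary-type small RNAs of mouse testis, defined as distinct read sequences of 24 to 29 nt without N that carry A at position 10 and no T at position 1. Positions are counted from 1 at the 5′ end, and U is written as T, as in the deposited files. Sequences that matched a GENCODE gene of 1 of 5 types in sense (miRNA, rRNA, snRNA, snoRNA or misc_RNA) were left out. Over the 6 libraries, 974445 distinct sequences met this rule, of 8606815 sequences of 24 to 29 nt that remained after the structural RNAs were left out (11.3%). Most were rare: 837550 were found in 1 library only, 509171 had 1 read in all, and 3640 were found in every library.

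The series holds 6 small RNA libraries of whole testis from C57BL/6 mice. For Dnmt3L, knockout (KO) testes and those of wildtype (WT) littermates were sampled at 16.5 days post coitum (dpc) and again at 10 days post partum (dpp). For Miwi2, KO testes and WT littermates were sampled at 10 dpp only. Dnmt3L is a cofactor of de novo DNA methylation in germ cells, and Miwi2 (gene symbol Piwil4) is a nuclear PIWI protein of fetal germ cells. Each library is 1 pool of animals, 7 to 8 per genotype at 16.5 dpc and 3 at 10 dpp, so no spread between animals is known, no test between groups was possible, and all intervals cover counting error only. The labels do not say how the alleles were made, and in whole testis fewer germ cells cannot be told apart from less RNA per germ cell.

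PIWI proteins bind piRNAs, which guide them to complementary RNA, above all that of transposons. In the ping-pong cycle a PIWI protein loaded with a piRNA that starts with U cuts a complementary transcript between the bases that face positions 10 and 11 of its guide. The cut end becomes the 5′ end of a new, secondary piRNA. A secondary piRNA therefore tends to carry A at position 10, opposite the first U of its partner, and the 5′ ends of the pair overlap by 10 nt. In fetal germ cells this cycle is known to act on transposon RNA, and after birth primary piRNAs from transcripts of genes become more frequent.

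The sequences with the highest level show what the rule selects. Sequences that shared their first 24 nt were treated as 1 group and are shown by the one with most reads, with the A at position 10 in capitals. Of the 8 groups with the highest mean level, 7 are printed, and "genes" gives how many of 55450 genes held the sequence without mismatch in their longest transcript.
Fetal-high, 8 genes: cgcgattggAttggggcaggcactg
Fetal-high, no transcript: caaaatctgAgaacgactcctgggcgccc
Start of 28S rRNA: cgcgacctcAgatcagacgtggcgacccg
Inside 5.8S rRNA: cggtggatcActcggctcgtgcgtcgat
Miwi2 KO-high, 38 genes: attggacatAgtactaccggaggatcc
Fetal-high, 2 genes: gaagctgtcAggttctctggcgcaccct
High in Dnmt3L of 10 dpp, no transcript: gaattgatcAggacatagggtttga
The names 28S and 5.8S come from general knowledge of the rRNA sequence. Both sequences passed the rule because no GENCODE rRNA transcript held them, so the members include some rRNA fragments.

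These sequences differed in the libraries that held them. The fetal-high sequence of 8 genes, the most abundant of all, had 2825 and 1491 reads per 1e6 reads of the library (RPM) in Dnmt3L WT and KO at 16.5 dpc. It had 1.66, 5.40, 14.0 and 179 RPM in Dnmt3L WT, Dnmt3L KO, Miwi2 WT and Miwi2 KO at 10 dpp. Both fetal libraries were thus high, and among the postnatal ones Miwi2 KO stood above the other 3. The fetal-high sequence of 2 genes, found in Gm35240 and Gm7968, had 600.2 and 212 RPM in the fetal libraries and 0.105 to 1.10 RPM in all 4 of 10 dpp. The sequence of 38 genes had the reverse order, with 16.4 and 15.9 RPM in the fetal libraries, 64.1 to 74.2 in the first 3 of 10 dpp and 579 in Miwi2 KO. The last of the printed sequences was highest in both Dnmt3L libraries of 10 dpp, at 201 RPM in WT and 279.5 RPM in KO, against 53.6 to 105.5 RPM elsewhere. The 2 rRNA fragments had 29.2 to 559 RPM (28S) and 5.67 to 316 RPM (5.8S) and were lowest in the Dnmt3L libraries of 10 dpp.

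The next sequences show what a member and its T-first partner look like. They were searched for at this overlap, so the overlap and the A that faces the T are set by the search and are no finding. Of the 6 most abundant pairs, the 3 printed had a 10 nt overlap of their 5′ ends on opposite strands of a transcript. The overlap is in capitals in both sequences, and the last capital of the member is the A that faces the first T of the partner.
Member of pair 1: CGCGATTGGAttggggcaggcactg
Partner of pair 1: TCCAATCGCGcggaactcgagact
Member of pair 2: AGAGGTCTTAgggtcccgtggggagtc
Partner of pair 2: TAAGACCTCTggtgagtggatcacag
Member of pair 3: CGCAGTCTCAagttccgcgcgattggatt
Partner of pair 3: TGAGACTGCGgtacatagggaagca
Both sequences of each pair were found in Gm26905, Gm48916, 4930470H14Rik or Gm42863, the members mostly in sense to these transcripts and the partners mostly in antisense.

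Of the 3 largest rises and 3 largest falls of each comparison, the first of each is shown next, and the others where they were found in a transcript. Their values stand with each comparison. Capitals again mark the A at position 10.
Higher in Dnmt3L KO, 16.5 dpc, 4 genes: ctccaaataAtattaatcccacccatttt
Higher in Dnmt3L KO, 16.5 dpc, D10Wsu102e: caagaactcAtgacagtagcggacaccc
Lower in Dnmt3L KO, 16.5 dpc: gcccaatcaActcgtgtaattctgga
Higher in Dnmt3L KO, 10 dpp, sequence 1: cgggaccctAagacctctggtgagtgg
Higher in Dnmt3L KO, 10 dpp, sequence 2: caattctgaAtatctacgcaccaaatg
Higher in Dnmt3L KO, 10 dpp, sequence 3: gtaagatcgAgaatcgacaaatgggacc
Lower in Dnmt3L KO, 10 dpp, 5 genes: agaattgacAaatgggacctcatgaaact
Lower in Dnmt3L KO, 10 dpp, Castor2: cttgaattgAtaggactctacccgcct
Higher in Miwi2 KO, 15 genes: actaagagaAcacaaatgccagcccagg
Higher in Miwi2 KO, 7 genes: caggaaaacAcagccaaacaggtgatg
Lower in Miwi2 KO, no transcript: gtccaggtgAaaggaagtaggcatg
Higher with age, no transcript: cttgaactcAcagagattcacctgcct
Higher with age, 2 genes: cttgaactcAcagaaatccacctgcct
Lower with age, no transcript: cgctattggAttggggcaggcactg
Lower with age, 2 genes: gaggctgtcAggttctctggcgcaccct
Lower with age, Gm42427: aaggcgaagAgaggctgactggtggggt
Those found in no or several transcripts are given without coordinates.

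The libraries held 28701563 to 47232494 reads, so that 3 reads, the most that a count of 0 allows, are 0.0635 to 0.105 RPM. Both Dnmt3L libraries of 10 dpp stood apart: they came from reads of up to 100 nt in place of 50, and 29.2% (WT) and 39.65% (KO) of their reads of 24 to 29 nt matched a left-out structural RNA, against 12.2% to 18.2% in the other 4. Every comparison with them carries this difference, whose part in the results was not tested. As a check of the tissue, miRNAs known from germ cells (9 of 12 listed were found) summed to 2440 to 31021 RPM and the Sertoli cell miRNA Mir202 had 30.4 to 426 RPM, while Mir122 of liver had 0 to 6.71 RPM. The germ cell sum was lowest in the fetal libraries, and at 10 dpp it was 31021 RPM in Dnmt3L WT and 9900 RPM in Dnmt3L KO, 13690 and 26980 RPM in Miwi2 WT and KO. Markers of muscle (16.8 to 236 RPM), brain (1.25 to 31.04 RPM) and blood (43.0 to 176.5 RPM) were low beside the germ cell sum, but not always beside Mir202. In fetal Dnmt3L WT blood markers had 42.98 RPM against 30.4 RPM for Mir202, which was the higher one in every other library. Muscle markers came near Mir202 in Dnmt3L WT of 10 dpp (224.6 against 255.9 RPM) and in Miwi2 WT (170.1 against 187.6 RPM). Some members are miRNAs with 1 to 4 extra bases at the 3′ end, which made up 1.62%, 2.495%, 7.56%, 16.9%, 3.40% and 3.26% of member reads. Every list of 6 values is in the order fetal Dnmt3L WT, fetal Dnmt3L KO, then at 10 dpp Dnmt3L WT, Dnmt3L KO, Miwi2 WT and Miwi2 KO.

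Member reads were most frequent before birth. They reached 38147 and 40057 RPM in the fetal libraries, 8593 and 3640 RPM in Dnmt3L WT and KO of 10 dpp, and 15848 and 18680 RPM in Miwi2 WT and KO. As a share of all 24 to 29 nt reads that remained, this was 12.1%, 11.5%, 6.31%, 4.35%, 8.08% and 9.76%. The number of distinct members was 304056, 437219, 96059, 34160, 170932 and 138228. A few sequences carried much of the level, since the 100 most abundant members held 15.8% to 34.0% of member reads, with the highest share in Dnmt3L KO of 10 dpp.

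A at position 10 was more frequent than at the neighbouring positions in all 6 libraries, which was asked among sequences without T at position 1 because base composition alone gives A at any position. Position 10 held A in 35.6%, 37.4%, 30.7%, 28.7%, 28.7% and 30.1% of the distinct sequences. Position 9 held A in 21.15% to 24.3% and position 11 in 22.9% to 25.75%. The excess over the mean of both neighbours was 13.6 and 13.9 percentage points in the fetal libraries and 5.06 to 6.38 points in the 4 of 10 dpp, so that fetal and postnatal libraries did not overlap. Position 10 had the highest share of A of positions 2 to 20 in both fetal libraries and in Miwi2 KO, and in the other 3 it was exceeded by position 2, with or without position 5. Weighted by reads, A at position 10 took 43.6%, 44.5%, 25.6%, 21.2%, 27.4% and 32.3%, and it ranked 8 and 12 among the positions in Dnmt3L WT and KO of 10 dpp. T-first sequences, which are not secondary-type, had a smaller excess of 2.98 to 4.32 points.

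The excess depended on where the sequences came from. Sequences found in 10 or more genes, called repeat-like here since no repeat annotation was at hand, had an excess of 18.6, 16.4, 17.3, 18.5, 17.5 and 15.4 points. By distinct sequences the repeat-like excess was thus similar before and after birth, and in all 6 libraries larger than that of sequences sense to 1 gene, 1.91 to 6.25 points. By reads it was 53.5 and 55.1 points before birth and lower in all 4 libraries after it, at 35.7, 43.5, 36.5 and 49.04 points. Sequences antisense to 1 gene had 18.1 and 16.9 points before birth, near the repeat-like ones, and 8.70 to 12.01 points after it. Those without a transcript had 13.8 and 14.4 points before birth and 3.91 to 6.86 points after it. By reads, the excess without a transcript was 16.3, 16.1, 2.67, -0.723, 2.80 and 4.56 points. In Dnmt3L KO of 10 dpp, A at position 10 (16.1%) thus lay below position 9 (16.7%) and position 11 (16.9%). Sequences without a transcript held 60.3% of member reads in that library. The repeat-like sequences make up a small part of the distinct members, 2.25% to 7.535%, but 11.4%, 12.7%, 10.6%, 13.9%, 10.6% and 23.9% of member reads. Miwi2 KO had the highest share by reads.

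T-first partners with a 10 nt overlap of the 5′ ends were present for a part of the members in every library. The search covered the distinct members that hit a transcript, 13504 to 79924 per library. Of these, 34.1%, 35.0%, 14.1%, 18.1%, 12.6% and 18.8% had a partner of 24 to 29 nt on the opposite strand at 10 nt. The same search was made for sequences with A at position 9 or 11, because A at a position by itself obliges a partner with that overlap to start with T. It gave 27.2%, 28.2%, 9.64%, 11.7%, 8.99% and 13.4% at 9 nt, and 26.8%, 28.2%, 10.3%, 12.2%, 9.47% and 13.8% at 11 nt. The share was highest at 10 nt of all overlaps from 5 to 20 nt in all 6 libraries. The median over the other overlaps was 26.1% and 28.1% before birth and 7.17% to 11.7% after it, so most of the share at 10 nt was also reached at other overlaps. Counted by reads, 71.7%, 71.2%, 28.9%, 35.0%, 33.85% and 52.8% of reads of members in transcripts had a partner. At 9 nt the shares by reads were 48.09%, 52.26%, 13.07%, 19.28%, 18.82% and 36.37%, and at 11 nt they ran from 20.03% to 55.18%. By reads too, 10 nt had the highest share in all 6 libraries. The next highest overlap reached 61.97%, 62.17%, 21.87%, 27.69%, 28.2% and 47.54%. Most of the share by reads at 10 nt was thus also reached at another overlap.

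Partners were most frequent for repeat-like members. By distinct sequences the 10 nt share there lay close to that at 9 nt, except in Dnmt3L KO of 10 dpp. Of these members 64.3%, 65.6%, 54.6%, 45.6%, 52.6% and 57.0% had a partner at 10 nt, against 63.9%, 64.1%, 54.0%, 40.8%, 52.85% and 55.7% at 9 nt. In Miwi2 WT the share at 9 nt was the higher one. At 11 nt the shares of repeat-like members were 63.2%, 65.1%, 51.9%, 39.4%, 51.8% and 52.3%. By reads the repeat-like shares at 10 nt were 81.6%, 86.4%, 77.4%, 69.3%, 77.5% and 81.1%. In each library this was above the share by reads at 9 nt (54.4% to 70.5%) and at 11 nt (47.4% to 78.3%). For members sense to 1 gene the shares were 13.15%, 14.8%, 2.44%, 2.79%, 2.45% and 3.50% at 10 nt and 7.83%, 9.03%, 1.47%, 1.30%, 1.60% and 2.05% at 9 nt. The 10 nt share of these members was the higher one in all 6 libraries.

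The 3 printed pairs differed in which side was abundant. In pair 1 the member had 27.1 and 10.55 times the reads of its partner in the fetal libraries, 2.42 times in Dnmt3L WT of 10 dpp and 11.45 times in Miwi2 WT. In the KO libraries of 10 dpp the ratio of pair 1 was below that of the WT, at 0.196 in Dnmt3L KO and 3.41 in Miwi2 KO, with partner levels of 27.6 and 52.3 RPM against 0.683 and 1.22 RPM in the respective WT. In pair 2 the partner had 14.0 and 53.8 RPM in the KO libraries of 10 dpp against 0.604 and 1.87 RPM in their WT. The member of pair 2 had 0.209 RPM in Dnmt3L KO against 1.16 RPM in WT, and 6.50 RPM in Miwi2 KO against 3.89 RPM in WT. In pair 3 the partner outnumbered the member in all 6 libraries, with ratios of 0.140, 0.0919, 0.170, 0.00144, 0.229 and 0.0416 of member to partner. The partner levels of pair 3 at 10 dpp were 1.235 and 24.25 RPM in Dnmt3L WT and KO and 4.18 and 98.7 RPM in Miwi2 WT and KO. All 3 printed partners were thus higher in both KO libraries of 10 dpp than in their WT. These 3 pairs share source transcripts, so they are not separate cases. The partners of the unprinted pairs were not higher in KO. The partner shared by the pairs ranked 1 and 2 had 1684 and 145 RPM in Dnmt3L WT and KO of 10 dpp. In Miwi2 WT and KO its levels were near each other, at 1546 and 1495 RPM. The partner of the pair ranked 6 had 0.3415, 0.139, 1.27 and 0.537 RPM in these 4 libraries, from only 13, 4, 57 and 20 reads.

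The lengths of members differed between libraries. The commonest length by reads was 28 nt in both fetal libraries, 27 nt in Dnmt3L WT of 10 dpp and both Miwi2 libraries, and 24 nt in Dnmt3L KO of 10 dpp. Mean length was 27.2, 27.3, 26.2, 25.7, 26.9 and 27.0 nt, by reads above that of T-first sequences without A at position 10 in each library, 26.25, 26.1, 25.7, 24.8, 26.1 and 26.25 nt. T-first sequences with A at position 10 came closer, with 26.3 nt against 26.2 nt for members in Dnmt3L WT of 10 dpp. By distinct sequences the members of both Dnmt3L libraries of 10 dpp were shorter than T-first sequences without A at position 10, at 26.43 against 26.61 nt in WT and 26.0 against 26.25 nt in KO. In Miwi2 they were nearly equal, at 26.87 against 26.83 nt in WT and 26.92 against 26.9 nt in KO. Only the fetal members were clearly longer, at 27.13 against 26.84 nt in WT and 27.19 against 26.91 nt in KO. Of these T-first sequences, those of 24 nt held 22.6% to 57.3% of reads but 5.15% to 11.25% of distinct sequences. MIWI2 is known to bind the longer piRNAs of the fetal testis. Lengths of 27 to 29 nt held 71.6%, 73.4%, 44.4%, 29.8%, 64.1% and 66.8% of member reads, against 10.6% to 47.4% for T-first sequences without A at position 10. For T-first sequences with A at position 10 the shares were closer, at 63.4%, 66.3%, 48.9%, 28.6%, 60.8% and 66.3%. In Dnmt3L WT of 10 dpp their share was above that of the members, so long reads were not particular to members. Dnmt3L KO of 10 dpp had the fewest long members and the most of 24 nt, 26.3% of member reads against 16.3% in its WT. Around position 10 the members held more G: position 11 was G in 35.0% to 40.3% of members against 27.3% to 29.9% of sequences without A at position 10, and position 9 in 32.3% to 36.4% against 24.04% to 27.6%. At position 1 the members held A in 32.5% to 43.9%, C in 31.3% to 38.5% and G in 20.8% to 36.25%, and C was more frequent than G in 5 of the 6 libraries, all but fetal Dnmt3L WT. The base that followed the end of a member in the transcript was T in 23.99% to 26.8%, within the 22.9% to 28.4% of the other classes.

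Members came from both strands. Of the distinct members found in 1 gene, 30.1%, 31.1%, 9.57%, 13.5%, 9.38% and 11.1% were antisense to it, against 23.9%, 25.6%, 5.50%, 7.34%, 5.605% and 6.07% of T-first sequences without A at position 10. The antisense share of members was the higher one in all 6 libraries. Sense matches to rRNA and other structural genes were left out, but antisense ones were not. Genes other than coding, long noncoding and pseudogenes held 10.2% and 17.05% of the antisense members in Dnmt3L WT and KO of 10 dpp, and 1.895% to 5.73% elsewhere. Their part in the antisense share was not tested. A transcript was found for 19.9%, 18.3%, 42.0%, 39.5%, 30.5% and 30.6% of the distinct members of each library, or 202158 of 974445 in all. Those sense to 1 gene lay mostly in protein coding genes, 70.3% and 69.2% before birth and 85.55% to 91.9% after it. Within the coding genes the 3′ UTR held 44.2% and 46.5% of them before birth and 51.7% to 62.9% after it.

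The genes with the most member reads are described next. All coordinates are of GRCm38 with GENCODE vM21, whereas the submitters' processing notes name mm9. D10Wsu102e, a protein coding gene at chr10:83360221-83488505 on the plus strand, had the most sense reads: 478, 597, 81.5, 23.4, 126 and 154 RPM. Of these reads 99.99% lay in its 3′ UTR, and 62.3% were found in no other gene. The transcript is 123179 nt long, and the share that the length of its 3′ UTR alone would give was not computed. D10Wsu102e also had 201, 233, 34.0, 12.9, 54.2 and 87.65 RPM of members in antisense, so both strands were high before birth. The lincRNA Gm26905, at chr8:58171435-58298866, had 650.1, 418, 4.72, 4.53, 7.46 and 65.55 RPM in sense and 83.2, 80.7, 6.73, 16.15, 11.5 and 175 RPM in antisense. Of its reads 38.8% in sense and 5.13% in antisense were found in no other gene. Both strands of Gm26905 were higher in Miwi2 KO than in the other 3 libraries of 10 dpp.

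Mitochondrial rRNA and cytosolic rRNA loci were among the named genes too. Sense reads of mt-Rnr2, the mitochondrial 16S rRNA at position 1094 to 2675 of chromosome M, had 38.5, 319, 70.6, 114, 56.1 and 103 RPM, highest in Dnmt3L KO of 16.5 dpc. The rRNA gene CT010467.1, at chr17:39846353-39848827 on the minus strand, had 125, 108, 291, 62.5, 93.1 and 78.0 RPM of members in antisense, highest in Dnmt3L WT of 10 dpp. Sense matches to this gene were left out by the rule, so its lack of sense members is no finding. Whether these antisense reads are plain fragments of an rRNA made from the plus strand was not tested. Noct, which encodes nocturnin, at chr3:51224447-51251644, had 138.5, 181, 20.1, 9.98, 20.3 and 68.1 RPM in antisense, of which all lay in its 5′ UTR and 18.1% were found in no other gene. The lincRNA Gm35240 and the gene Gm7968 had 406.5 and 435 RPM in fetal WT and 0.114 and 0.142 RPM in Dnmt3L WT of 10 dpp. Only 0.591% and 9.18% of their sense reads were found in no other gene. Of the 24 genes of the piRNA and DNA methylation pathways, 20 had a sense member read and 11 had at least 10, while 5140 of 21951 coding genes had 10 (23.4%). Dnmt3a, the de novo methyltransferase, had 13, 23, 51, 0, 98 and 60 reads. Piwil4 had 1 read in all and Dnmt3l 0, so the deleted genes gave no check of the labels.

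The first comparison asked how loss of Dnmt3L changed the members at 16.5 dpc. Members had 38147 RPM in WT and 40057 RPM in KO, a ratio of 1.05 (95% interval 1.05 to 1.05, log2 0.07). A class total was called changed where its absolute log2 ratio exceeded that between both WT libraries of 10 dpp, here 0.88, and this total was not. The limit is a single difference between libraries that also differ in read length, and it measures no spread between WT animals. By length of the members it ran from 0.076 at 25 nt to 2.525 at 29 nt. Scaled by the 24 to 29 nt reads that remained, the log2 ratio of all members was -0.074. By origin the ratio ran from 0.913 for members in 2 to 9 genes to 1.18 for repeat-like members, and no origin passed its own limit. Single sequences were taken where both libraries held at least 100 reads together. Of 2868 members 148 were 4-fold higher (5.16%, against 4.62% of all 18610 sequences of 24 to 29 nt) and 47 were 4-fold lower (1.64%, against 2.11%). The 95th percentile between both WT libraries, 78.9-fold, was passed upward by 0 members (against 0.0376% of all sequences) and downward by 2 (0.0697%, against 0.0215%). The members' median log2 ratio was -0.01.

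Named sequences are summed over all members with the same first 24 nt, so their counts and folds differ from those of the single sequences counted above. The largest rise at 16.5 dpc, of the sequence found in 4 genes, was from 0 reads in WT to 120 in KO, at least 35.9-fold. The sequence of D10Wsu102e, at chr10:83391886-83391913 on the plus strand in the 3′ UTR, had 289 reads in KO and 3 in WT, 86.4-fold (95% interval 29.3 to 422). It had 0 to 0.645 RPM in the libraries of 10 dpp. The printed lower sequence had 1 read in KO and 337 in WT, 376-fold lower (67.0 to 14882), and 0 reads in the other 4 libraries.

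The second comparison asked the same at 10 dpp. Members fell from 8593 RPM in WT to 3640 RPM in KO, 2.36-fold lower (ratio 0.4235, interval 0.421 to 0.4265, log2 -1.24, past the limit of 0.88). Scaled by the 24 to 29 nt reads that remained, members were 1.45-fold lower, past the limit of that scaling, and scaled by miRNA reads the log2 ratio of -1.47 did not pass its limit of 1.58. The other classes fell too, with ratios of 0.460 for T-first sequences with A at position 10, 0.706 for those without it and 0.543 for sequences with neither feature, each past its own limit. Among members, those sense to 1 gene (0.271), antisense to 1 gene (0.278) and in 2 to 9 genes (0.298) fell past their limits. Members antisense to 1 gene had 268.8 RPM in WT and 74.73 RPM in KO. Genes other than coding, long noncoding and pseudogenes held 133.5 and 31.98 RPM of this. Coding genes fell as well, from 79.8 to 23.1 RPM. In Miwi2 WT these other genes were lower than in Dnmt3L WT (35.59 RPM) and coding genes higher (181.7 RPM). The part of rRNA fragments in the antisense fall and its limit was not tested. Repeat-like members had a ratio of 0.555 (912 RPM in WT, 506 RPM in KO, log2 -0.85) and members without a transcript 0.502 (log2 -0.99), neither past its limit. Long members differed most: the ratio was 0.682 at 24 nt and 0.140 at 29 nt. Between both WT libraries of 10 dpp it was 1.11 and 5.755 at the same lengths, so length differed between WT libraries as well. Germ cell miRNAs, 31021 RPM in WT and 9900 RPM in KO, moved with this result, and their part in it was not tested.

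Of 412 members with 100 reads, 212 were 4-fold lower in Dnmt3L KO at 10 dpp (51.5%, against 45.7% of all 4234 sequences) and 9 were 4-fold higher (2.18%, against 2.69%). Past 78.9-fold there were 4 lower members (0.971%, against 0.425% of all sequences) and 0 higher (against 0.0236%). Of the 78 repeat-like members tested, 39 were 4-fold lower and 7 higher, and of the 97 in 2 to 9 genes 68 were lower and 2 higher. These were all of the 9 higher members. The members' median log2 ratio was -2.03, against -1.76 for all sequences.

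The 3 sequences with the largest rise in Dnmt3L KO at 10 dpp were also high in Miwi2 KO, a comparison with other control animals. Sequence 1 had 109 reads in Dnmt3L KO and 6 in WT, 24.1-fold (10.7 to 67.1), and 68.4 RPM in Miwi2 KO beside 1.22 RPM in Miwi2 WT. Sequence 2 had 168 against 14 reads, 15.9-fold, and 42.9 RPM beside 0.200 RPM. Sequence 3 had 251 against 26 reads, 12.8-fold, and 231 RPM beside 2.78 RPM. Each of the 3 was found in 8 genes, Gm26905 among them. In the fetal libraries they had 244.5 and 169 RPM, 1.75 and 2.795 RPM, and 11.97 and 15.1 RPM. The largest falls gave 0 reads in KO against 110 in WT for the sequence of 5 genes, at least 27.6-fold lower against the floor of 3 reads. The sequence of Castor2, a relative of the arginine sensor CASTOR1, lies at chr5:134140881-134140907 on the plus strand in the 3′ UTR and had 1 read against 175, 132-fold lower. Its levels in Miwi2 WT and KO were 3.07 and 1.69 RPM.

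The third comparison asked how loss of Miwi2 changed the members at 10 dpp, and repeat-like members rose. They had 1682 RPM in WT and 4460 RPM in KO, 2.65-fold higher (2.63 to 2.675, log2 1.41, past the limit of 0.88). Members in 2 to 9 genes rose from 2129 to 3227 RPM, 1.52-fold (log2 0.60, limit 0.56). Members sense to 1 gene (0.779), antisense to 1 gene (1.02) and without a transcript (0.954) did not pass their limits. All members together had 15848 RPM in WT and 18680 RPM in KO, a ratio of 1.18 (log2 0.24) that did not pass. The T-first class without A at position 10 had ratios of 2.55 for repeat-like sequences and 1.79 for those in 2 to 9 genes, close to the ratios of the members. Germ cell miRNAs, 13690 RPM in WT and 26980 RPM in KO, and Mir202, 188 and 309 RPM, moved with the repeat-like members, and their part in the result was not tested.

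Of 1162 members with 100 reads, 301 were 4-fold higher in Miwi2 KO (25.9%, against 15.5% of all 10641 sequences) and 51 were 4-fold lower (4.39%, against 4.05%). Repeat-like members made up 152 of the 301, out of 298 tested, and members in 2 to 9 genes 97, out of 320. Only 9 of 109 members sense to 1 gene were among them. Past 78.9-fold there were 35 higher members (3.01%, against 2.04% of all sequences) and 9 lower (0.775%, against 0.564%), all 9 without a transcript. The members' median log2 ratio was 0.23 and that of all sequences -0.14.

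The sequence of 15 genes showed the largest rise in Miwi2 KO, with 348 reads against 0 in WT, at least 140-fold. It had 2.03 and 2.265 RPM in the fetal libraries and 0.0263 and 0.279 RPM in Dnmt3L WT and KO of 10 dpp, so it was read in 5 of the 6 libraries. The sequence of 7 genes had 192 reads against 0, at least 77.4-fold, and 0.488 RPM in Dnmt3L KO of 10 dpp against 0 reads in its WT. The largest fall, from 268 reads to 0, at least 73.9-fold lower, was in a sequence that had 0 reads in the other 4 libraries.

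The comparison of ages set Dnmt3L WT of 10 dpp beside Dnmt3L WT of 16.5 dpc, libraries that also differ in read length. Members fell from 38147 to 8593 RPM, 4.44-fold lower (ratio 0.225, log2 -2.15, past the limit of 0.88). Scaled by the 24 to 29 nt reads that remained, they were 1.92-fold lower, still past the limit of that scaling. The other classes fell past their limits too, with ratios of 0.395 for T-first sequences with A at position 10, 0.474 for those without it and 0.505 for sequences with neither feature. Germ cell miRNAs had 3063 RPM at 16.5 dpc and 31021 RPM at 10 dpp, and their part in this result was not tested. Members in 2 to 9 genes (0.150), antisense to 1 gene (0.1845) and repeat-like (0.2105) fell most, and those without a transcript had 0.218, while members sense to 1 gene had a ratio of 0.606, which did not pass. By length the ratio was 0.626 at 24 nt and 0.0581 at 29 nt. Of 1600 members with 100 reads, 1119 were 4-fold lower at 10 dpp (69.9%, against 59.3% of all 11482 sequences) and 177 were 4-fold higher (11.1%, against 15.5%). Past 78.9-fold there were 709 lower members (44.3%, against 31.4% of all sequences) and 42 higher (2.625%, against 3.34%).

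The printed sequence that was lower with age and without a transcript had 7731 reads at 16.5 dpc and 0 at 10 dpp, at least 2315-fold lower. In Miwi2 KO it had 14.3 RPM, beside 0.778 RPM in Miwi2 WT and 0 reads in Dnmt3L KO of 10 dpp. It differs in a single base from the most abundant sequence, the fetal-high one of 8 genes, and matching allowed no mismatch. The sequence of 2 genes, Gm35240 and Gm7968, had 5394 reads against 0, at least 1616-fold lower. This one differs in a single base from the fetal-high sequence of the same genes. Whether such variants are separate from the abundant sequences was not tested. The sequence antisense to Gm42427, at chr5:44137984-44138011 in a noncoding exon, had 2865 reads against 0, at least 858-fold lower. Among rises, the sequence without a transcript had 687 reads at 10 dpp against 0, at least 255-fold. The sequence of Mrpl45, a mitochondrial ribosomal protein gene, and Slc7a2, an amino acid transporter gene, had 0 reads at 16.5 dpc and 430 at 10 dpp, at least 159.5-fold. It stood at 12.8 and 8.25 RPM in Miwi2 WT and KO but at 0.244 RPM in Dnmt3L KO of 10 dpp.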

How the data were processed

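Per the labels' protocols, RNA between 18 and 35 nt was cloned with the TruSeq small RNA kit from Trizol extracts of testis. The deposited files list distinct sequences, each with its raw count as made by the authors. How reads were trimmed is not given in the sources used here. The submitters' processing notes name mm9. The members and lists were chosen with earlier results of these data known.

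Sequences were matched without mismatch to 55450 transcripts, the longest of each gene, of GENCODE vM21 (GRCm38) with Python 3.11.15, numpy 2.4.6, scipy 1.17.1, pandas 2.3.3 and numba 0.67.0. No genome or repeat annotation was at hand, so the share of members without a transcript is large. Levels are RPM over all reads of a library. The rule for members was read as any of the 6 libraries, since 3640 sequences occur in all 6. Matching was tested on simulated data, where every placed read was found. The limit of change is the log2 ratio between both WT libraries of 10 dpp for class totals and the 95th percentile of its absolute value over 9110 sequences for single ones, with 0.5 added to each count. Intervals are 95% exact Clopper-Pearson or conditional binomial intervals and cover counting error only, as reads carry no molecular identifiers. Named sequences are the 8 groups with the highest mean level, the 3 largest rises and falls of each comparison and the 6 most abundant pairs, and named genes are the 10 with most sense reads and the 5 with most antisense reads. Groups with a hit on chromosome 18 are not printed. Alternatives changed the scaling, the length window, the left-out RNA, the limit, the read minimum, the partner length and the depth. Leaving out tailed miRNAs, the rRNA locus or sequences with 1 read, and taking repeat-like members alone, were added after seeing the data.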

Additional observations from a re-analysis of the deposited data

Results flagged for a closer look

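In Dnmt3L KO against WT the members had a log2 ratio of 0.070 at 16.5 dpc and -1.24 at 10 dpp, and these values have opposite signs. The sign at 16.5 dpc depends on the scaling: over the 24 to 29 nt reads that remained it was -0.074, negative at both ages. The same was seen for members sense to 1 gene (0.15 and -1.88), for repeat-like members (0.23 and -0.85) and for members without a transcript (0.12 and -0.99). The difference between the ages was not tested, since each group is 1 library, and the libraries of the ages differ in read length and size profile.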

How the results depend on the processing

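No paired analysis was possible because each group is 1 library. The ratio of member reads in Dnmt3L KO against WT at 16.5 dpc changed sign when scaled by the reads of 24 to 29 nt that remained, to log2 -0.074. At 10 dpp it kept its sign, but scaled by miRNA reads it was -1.47 and did not pass its limit of 1.58. Counted as distinct sequences, the ratios at 16.5 dpc (0.14) and in Miwi2 KO (0.062) passed a limit of 0.03. The cause was not tested. Ranges were -1.47 to -0.25 for Dnmt3L KO at 10 dpp, 0.062 to 0.28 for Miwi2 KO and -3.27 to -0.54 for age. Counts of single members past the limit were 2, 4 and 44 in the Dnmt3L comparison of 16.5 dpc, that of 10 dpp and that of Miwi2. They were 195, 221 and 352 at 4-fold, and 17, 14 and 113 with at least 50 reads, and 4, 4 and 56 when scaled by the reads that remained. A at position 10 exceeded both neighbours in 6 of 6 libraries under each alternative. So did partners at 10 nt by distinct sequences, except for repeat-like members alone, where 5 libraries remained. Partner shares were 34.2%, 34.8%, 14.2%, 18.1%, 12.5% and 18.9% with libraries thinned to the depth of the shallowest.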
